A study of Mus musculus with 10 samples.

Results

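Long intergenic noncoding RNAs were measured with 16251 probes, 60 bases each and 1 spot each, of the 55681 non-control probes on the array. They were taken as all non-control probes whose name starts with A_30_P, whatever their signal. The array design names most of them by the genomic interval they lie in and the strand they read: 4622 stranded intervals, with a median of 3 probes each and at most 10. The intervals form 3555 positions, of which 1067 carry probes to both strands, and overlapping intervals merge into 2231 loci. The other 57 probes carry the names of 12 known transcripts, among them H19, NEAT1, XIST and TUG1. Positions are those of the array files (mouse build mm9), which place 16133 of the probes on 20 chromosomes and give none for 118.

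The cells were C2C12, a mouse myoblast line that can be driven to form myotubes in culture. One group received a miR-142-3p mimic and the other a scrambled control, both at 150 nM by Lipofectamine, in DMEM with 10% FBS. RNA was taken 72 hours after transfection, by TRIzol. The labels put the efficiency of transfection at about 60%. By that figure each RNA pool would also hold cells that took up no oligonucleotide, which was not tested. All values are averages over the culture. In such bulk RNA, fewer cells of a kind and less RNA per cell cannot be told apart. Each array took 150 ng of RNA labelled with Cy3. The labels list 6 mimic and 4 scrambled samples as independent replicates, but the file headers show 10 scans of 5 array positions on 1 slide, each position scanned on 2 days. Scans of a position were averaged, which leaves 3 mimic arrays and 2 scramble arrays, and the array is the unit of every n here. All 4 scrambled titles carry a remark on a re-analysis whose meaning the labels do not give.

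Long intergenic noncoding RNAs are transcripts made from DNA between protein-coding genes, often spliced and polyadenylated like messenger RNA, and many are kept at low levels and in few cell types. Some act in the nucleus on nearby genes, some act as scaffolds or bind microRNAs, some are hosts of microRNA precursors, and some annotated as noncoding encode micropeptides. H19, for example, is an imprinted transcript that is high in embryonic and regenerating muscle and is the precursor of miR-675. A microRNA acts by guiding Argonaute to transcripts that pair with its seed, and miR-142-3p is known mainly from blood cells.

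The sequences below are the mimic's natural counterpart, with its seed (bases 2 to 8) in capitals as given by RefSeq for GRCm38.p6, and the 2 called probes that contain the DNA letters complementary to that seed, ACACTAC, here in capitals.
mmu-miR-142a-3p: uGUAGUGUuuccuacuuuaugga
H19 probe A_30_P01028827, chr7:149762113-149762172, reverse strand: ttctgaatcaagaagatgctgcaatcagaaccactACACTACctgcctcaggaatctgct
A_30_P01021337, chr2:36112970-36113029, forward strand: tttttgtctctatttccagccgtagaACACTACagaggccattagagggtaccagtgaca

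The next set shows probes of the intervals with the largest called falls: one more of H19, the 3 of an interval on chromosome 1, and 4 called probes that lie far from any tested gene probe, a pair of falls and then a pair of rises.
H19 probe A_30_P01026972, chr7:149762173-149762232, reverse strand: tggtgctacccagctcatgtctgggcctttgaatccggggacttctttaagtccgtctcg
A_30_P01028051, chr1:20671883-20671942, forward strand: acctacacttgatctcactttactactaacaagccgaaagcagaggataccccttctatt
A_30_P01028955, chr1:20672069-20672128, forward strand: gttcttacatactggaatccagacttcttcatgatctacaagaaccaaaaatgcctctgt
A_30_P01024151, chr1:20672129-20672188, forward strand: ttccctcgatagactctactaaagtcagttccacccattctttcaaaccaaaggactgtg
A_30_P01025844, chr10:118427607-118427666, reverse strand: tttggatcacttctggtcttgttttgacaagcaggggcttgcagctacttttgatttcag
A_30_P01030784, chr4:123175047-123175106, reverse strand: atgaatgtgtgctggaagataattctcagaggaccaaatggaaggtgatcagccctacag
A_30_P01025059, chr10:120069888-120069947, reverse strand: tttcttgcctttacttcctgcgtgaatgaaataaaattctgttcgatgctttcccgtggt
A_30_P01027251, chr14:77274960-77275019, forward strand: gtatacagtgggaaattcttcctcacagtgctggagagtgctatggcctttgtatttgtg

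Most of the intergenic probes gave no signal that the scanner software called well above background. Between 7.66% and 16.5% of them passed that call on a scan, against 30.9% to 40.4% of the other 39430 non-control probes. Over arrays, the share was 15.3%, 9.86% and 14.2% with the mimic and 11.7% and 11.0% with the scramble. Mimic array 2 was the lowest and the other mimic arrays the highest, so the groups overlapped: 13.1% ± 2.88 (SD, n = 3) against 11.4% ± 0.537 (SD, n = 2), a difference of 1.76 percentage points (two-sided exact permutation p = 0.6; the smallest p possible with 3 against 2 arrays is 0.2). By the software's laxer call of a signal that is positive and significant, the means were 37.1% and 36.9% (exact p = 1). Of all 16251 probes, 12291 (75.6%) were well above background on no scan, against 51.8% of the other probes, and 1070 (6.58%) on all 10, against 29.3%. None was saturated.

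**Figure D1:**
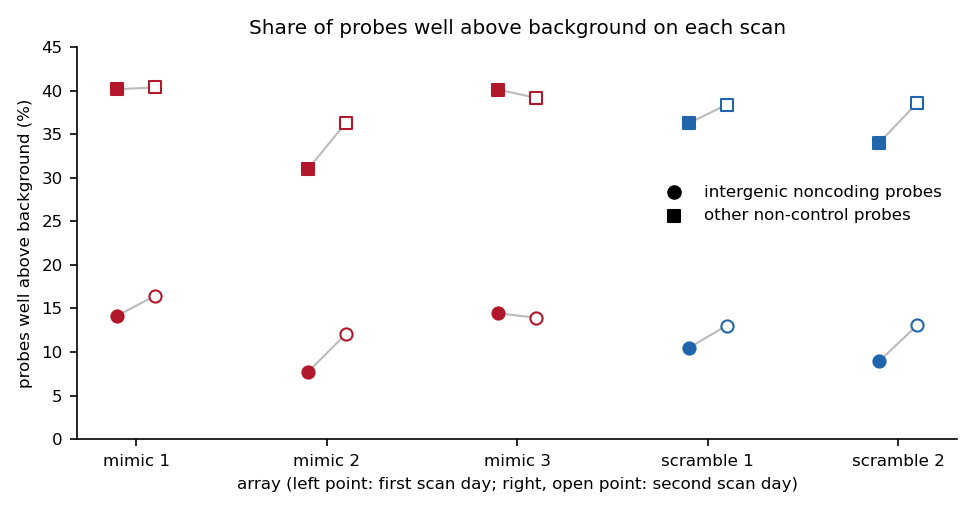
Share of probes well above background (vertical axis, %) on each scan of the 5 arrays (horizontal axis); circles are intergenic noncoding probes, squares the other non-control probes, and filled and open symbols the first and second scan day. The intergenic probes lie between 7.66% and 16.5% on every scan, and the mimic and scramble arrays overlap.

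To compare mimic with scramble, each scan's log2 signal was set against that scan's 75th percentile, and a probe was tested where 4 or more of the 10 scans had it well above background. That left 2099 intergenic probes (12.9%; 38.9% of the others), from 8.15% of those on chromosome 9 to 19.1% on chromosome 19. A call means an adjusted p under 0.05 in limma's fit over all 17455 tested probes. Differences are mimic minus scramble on the log2 scale, and levels are log2 signal relative to the scan's 75th percentile, so that a negative level lies below it.

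With the mimic, 149 intergenic probes were called (7.10%): 97 higher (4.62%) and 52 lower (2.48%). Over all 17455 tested probes, 9.13% were called, 5.11% higher and 4.02% lower. Both directions lay below these shares, a difference that was not itself tested. At an unadjusted p under 0.05 there were 491 of the 2099 tested intergenic probes, beside 4422 of all 17455. The arrays of the groups did not overlap for 833 intergenic probes (39.7%; 42.9% of all tested). The median difference was 0.11 over the intergenic probes and 0.06 over all tested probes. By the fitted difference, 118 of the 149 calls were at least 2-fold, and the smallest was 1.73-fold. These figures take in the probes described next, whose fold was not measured. For 36 rises no scramble scan was well above background, and for 4 falls no mimic scan was. Over all tested probes this held for 252 of 892 rises and 90 of 702 falls. The filter bears on these counts and on those of rises and falls. A probe seen only with the mimic could pass on 4 of 6 scans, and 1 seen only with the scramble needed all 4. Such probes were tested through the group where they are high, so their p-values are not free of that choice. For the 40 intergenic probes only a bound is given, written "at least": the bright group's mean against the lowest signal well above background on the dim arrays, or the probe's own signal there where that is higher.

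Over all tested probes, 3.83% were called without mimic array 1, 4.68% without mimic array 2 and 4.14% without mimic array 3. Of the intergenic probes these shares were 3.14%, 4.24% and 3.72%. The number of intergenic calls thus depended on single arrays, as did that of all tested probes. It was 66 without mimic array 1 (37 higher, 29 lower), 89 without mimic array 2 (53 and 36) and 78 without mimic array 3 (47 and 31). Leaving out either scramble array left 1 scramble array, so the number of intergenic calls is not given for those fits. Of the 149, 62 were called in all 5 of these fits (25 lower, 37 higher, in 26 loci), and all 149 kept their direction in all 5.

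**Figure D2:**
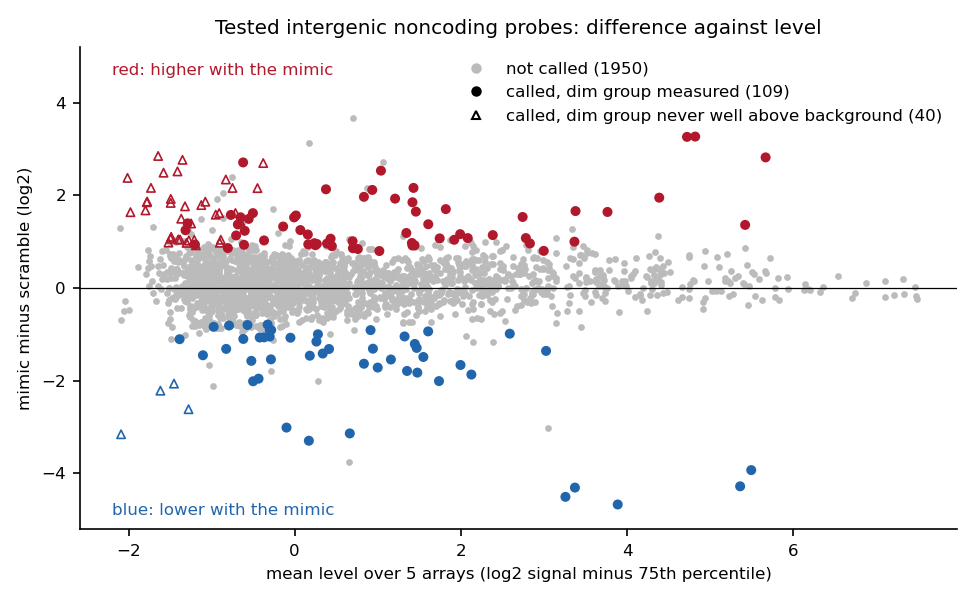
Difference between mimic and scramble (vertical axis, log2) against the mean level over the 5 arrays (horizontal axis, log2 signal minus 75th percentile) for the 2099 tested intergenic probes. Red symbols are the 97 called higher and blue symbols the 52 called lower; open triangles are the 40 calls whose dim group was never well above background, and they lie at the low end of the level axis.

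Many of the calls shared a locus, and the design places several probes in most loci. They lay in 79 of 892 tested loci, on 20 chromosomes. In 51 loci all calls were rises, in 27 all were falls, and in 1 there were both. A single call was made in 49 loci, whereas 16 loci with at least 3 calls held 72 of the 149. Probes of a locus share a transcript, or at least a region, and are not replicates of each other.

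H19 showed the largest falls of all tested intergenic probes. All 5 of its probes (chr7:149761435-149764019, reverse strand) were tested, and all 5 fell, by 15.2-fold to 25.4-fold. Probe A_30_P01026972 read 1.98, 2.20 and 1.88 on the mimic arrays and 6.40 and 6.98 on the scramble arrays. Its difference was -4.67 (SE 0.24, adjusted p = 4.99e-05), a 25.4-fold fall. The probe with the seed complement, A_30_P01028827, read 1.53, 1.80 and 1.62 with the mimic and 5.60 and 6.31 with the scramble, a difference of -4.30 (adjusted p = 8.56e-05). Probe A_30_P01028007 read 1.27, 1.58 and 1.52 against 5.73 and 6.20, a difference of -4.50 (adjusted p = 4.72e-05). On each of these probes, every mimic array lay far below every scramble array. The remaining pair, A_30_P01025068 and A_30_P01021588, differed by -4.28 and -3.93. A gene probe to H19 that is not in the intergenic set read 5.32, 5.61 and 5.35 against 8.27 and 8.47, a 7.67-fold fall (-2.94, SE 0.20, adjusted p = 0.000156). All 5 intergenic calls held without each array in turn.

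A 3-probe interval on chromosome 1 (chr1:20669157-20672643, forward strand) held the largest called fall after these. Probe A_30_P01028955 read -1.21, -1.07 and -1.16 with the mimic and 2.23 and 2.06 with the scramble, a 9.81-fold fall (-3.29, SE 0.19, adjusted p = 7.80e-05). A_30_P01024151, which starts at the next base, read -0.71, -0.35 and -0.72 against 2.63 and 2.46, an 8.79-fold fall (-3.14, adjusted p = 0.000144). A_30_P01028051 read -0.74, -1.68 and -1.49 against 1.59 and 1.83, an 8.06-fold fall (-3.01, SE 0.30, adjusted p = 0.000667), with 2 of 6 mimic scans well above background. The groups were far apart on each probe, and all 3 calls held without each array in turn. The nearest gene probe, 52216 to 52462 bases away, is to the cytokine gene Il17a and stayed below the background call on all 10 scans. In RefSeq's order of genes (GRCm38.p6), Lincmd1, a noncoding RNA of differentiating muscle, and the muscle microRNAs Mir206 and Mir133b come before Il17a. The interval was not matched to any of them by position, since the builds differ.

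At Mrln, 7 of 9 tested probes fell, all on the forward strand, by 1.57 to 2.01 on the log2 scale. Mrln, also called Linc-RAM and long annotated as noncoding, encodes myoregulin, a micropeptide that inhibits the calcium pump of the sarcoplasmic reticulum. The locus (chr10:69667411-69686275) holds 16 probes. Probe A_30_P01031764 read 0.59, 0.93 and 0.72 with the mimic and 2.84 and 2.30 with the scramble, a 3.54-fold fall (-1.82, SE 0.23, adjusted p = 0.0026). The gene probe to Mrln read 0.60, 1.12 and 0.87 against 3.32 and 2.50, a 4.13-fold fall (-2.05, SE 0.29, adjusted p = 0.00417). A_30_P01031764 and A_30_P01032544 overlap that gene probe on the same strand. A_30_P01027510 and A_30_P01017637 lie 38 and 24 bases from it. These intergenic probes cannot be told apart from the gene. Without mimic array 1, 5 of the 7 stayed called: A_30_P01032544 went to -1.79 (adjusted p = 0.0630) and A_30_P01017637 to -1.56 (adjusted p = 0.0521).

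A further pair of falls with large fitted differences lay farther from gene probes. A_30_P01025844 on chromosome 10 read -3.53, -2.90 and -3.62 with the mimic, never well above background, and -0.20 on both scramble arrays, at least 2.41-fold lower (adjusted p = 0.000295). Its nearest gene probe, to Gm38403, lies 69820 bases away and was not tested. A_30_P01030784 on chromosome 4 read -2.30, -2.30 and -2.36, also never well above background, against 0.04 and 0.54, at least 3.38-fold lower (adjusted p = 0.000324). A_30_P01032994 of the same interval fell by 2.01 (adjusted p = 0.00142).

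The largest called rises lay at Gm3776, a protein-coding gene that stands among glutathione S-transferase alpha genes in RefSeq's order. Of 7 tested probes in the locus (chr9:78104935-78118850), 6 rose, 5 of them by 1.97 to 3.27 and 1 with a bound only. Probe A_30_P01018914 read 5.98, 6.25 and 6.16 with the mimic and 3.06 and 2.66 with the scramble, a 9.63-fold rise (3.27, SE 0.21, adjusted p = 0.000138). A_30_P01020518 read 5.92, 6.03 and 6.13 against 2.93 and 2.60, a 9.59-fold rise (3.26, adjusted p = 0.000115). A_30_P01028766, which has the same 60 bases as the Gm3776 gene probe, read 6.64, 6.92 and 6.82 against 4.32 and 3.64, a 7.05-fold rise (2.82, adjusted p = 0.000423), beside 3.09 on the gene probe. Genes of this family can be near-identical, so which copy was measured is uncertain.

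On the reverse strand of the same locus, A_30_P01033583 read 1.88, 2.04 and 2.24 against -0.64 and -0.32, a 5.79-fold rise (2.53, adjusted p = 0.000347). A_30_P01021311 read 0.77, 0.83 and 0.50 against -3.05 and -0.94, the scramble never well above background, at least 3.56-fold higher (adjusted p = 0.0184). Its scramble arrays lay far apart, and its call was lost without mimic array 1 (adjusted p = 0.0750) and without mimic array 2 (adjusted p = 0.0564). The remaining reverse-strand call, A_30_P01023273, rose by 1.97.

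At neighbouring loci on chromosome 1, probes rose beside genes of the p200 family, which are interferon-inducible and include sensors of cytosolic DNA. Near Ifi207 (chr1:175653557-175672031), 8 of 9 tested probes rose, 5 by 1.01 to 1.65 and 3, with no scramble scan well above background, by at least 1.52-fold to 2.52-fold. Probe A_30_P01019537, at the same position as the Ifi207 gene probe, read -0.38, -0.01 and -0.34 with the mimic and -2.66 and -3.36 with the scramble, at least 1.97-fold higher (adjusted p = 0.000542). The gene probe, whose scramble scans were likewise never well above background, was at least 2.40-fold higher (adjusted p = 0.0106). Near Ifi203-ps (chr1:175705225-175717250), all 5 tested reverse-strand probes rose, by 1.66 to 2.16. Here A_30_P01022549 read 2.28, 2.30 and 2.30 against 0.52 and -0.25, a 4.47-fold rise (adjusted p = 0.00166), and A_30_P01023338 read 1.94, 1.96 and 2.05 against 0.14 and -0.04, a 3.81-fold rise (adjusted p = 0.000653). The gene probe rose by 1.42 (SE 0.19, adjusted p = 0.00349).

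The calls at these loci rested partly on single arrays. Near Ifi207 the number called was 3 without mimic array 1, 7 without mimic array 2, 6 without mimic array 3 and 8 without either scramble array. The call of the Ifi207 gene probe was lost without scramble array 2 (adjusted p = 0.0540). Near Ifi203-ps, 4 of 5 stayed called without mimic array 1 and without scramble array 2; the lost one, A_30_P01027543, was at 1.83 (adjusted p = 0.0512) and 1.76 (adjusted p = 0.0528). The genes of the family resemble each other, and a probe may read more than 1 copy. The printed pair, from the 2 loci, shares a run of 23 bases, in capitals.
A_30_P01019537, chr1:175653663-175653722, reverse strand: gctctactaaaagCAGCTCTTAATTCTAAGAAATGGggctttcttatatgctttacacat
A_30_P01022549, chr1:175706528-175706587, reverse strand: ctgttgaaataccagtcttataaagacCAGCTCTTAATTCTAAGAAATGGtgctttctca

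The other called rises with large fitted differences lay far from tested gene probes. On chromosome 14 (chr14:77258025-77278750, forward strand), 6 of 7 tested probes rose, all 6 with no scramble scan well above background, by at least 1.14-fold to 1.94-fold. These 6 passed the filter through their mimic scans alone, so their p-values are not free of that choice. A_30_P01027251 read -0.61, -0.44 and -0.70 with the mimic and -3.15 and -2.99 with the scramble, at least 1.56-fold higher (adjusted p = 0.000254). A_30_P01030451 read -0.74, -0.15 and -0.32 against -3.23 and -2.61, at least 1.76-fold higher (adjusted p = 0.00102). Mimic and scramble arrays were apart on both, which the choice of the probes required. The nearest gene probe, to Lacc1, lies 149473 to 149826 bases from these and stayed below the background call on all 10 scans. Without mimic array 1, 5 of the 6 stayed called; without each other array all 6 did.

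A_30_P01025059 on chromosome 10 lies 101 bases from a probe of the transcript 4930471E19Rik. It read -0.61, -0.32 and -0.58 with the mimic and -3.43 and -3.28 with the scramble, at least 1.64-fold higher (adjusted p = 0.000168). A_30_P01020542 on chromosome 5 read 0.34, 0.79 and 0.26 against -1.20 and -3.29, a 6.54-fold rise (2.71, SE 0.53, adjusted p = 0.019). Its scramble arrays lay far apart, with 1 of 4 scans well above background, and the call was lost without mimic array 1 (2.77, adjusted p = 0.0683) and without mimic array 2 (2.54, adjusted p = 0.0607).

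**Figure D3:**
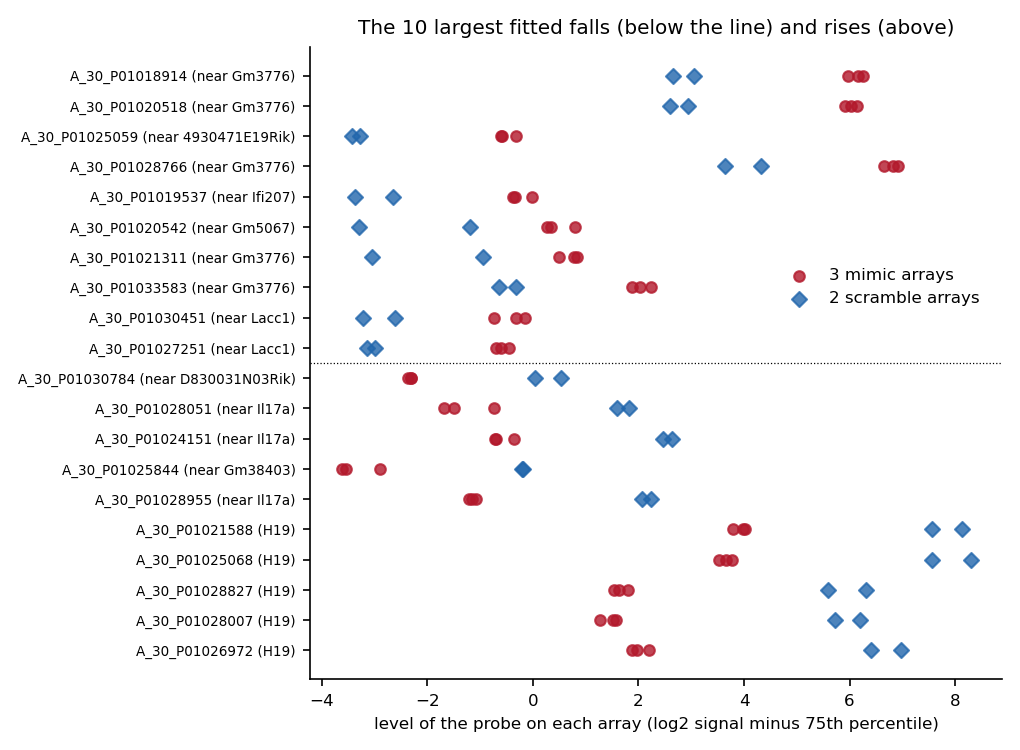
Level on each array (horizontal axis, log2 signal minus 75th percentile) for the 10 called intergenic probes with the largest fitted rises and the 10 with the largest fitted falls; circles are the 3 mimic arrays and diamonds the 2 scramble arrays. On all 20 the arrays of the groups do not overlap, which the choice of the probes required; names in brackets give the nearest gene probe.

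A further 8 loci held at least 3 calls each, 27 in all. Near Gm2115 (chr7:91558475-91733625) 4 probes rose, 1 by 2.13 and 3 with a bound only (at least 1.37-fold to 3.11-fold), and the gene probe by 2.55. At Dynap 3 rose by 1.53 to 1.95. The largest of these, A_30_P01030369, has the same sequence as the gene probe to Dynap, which rose by 1.96 (adjusted p = 0.00456). That intergenic probe cannot be told apart from the gene. Near LOC100503338 on chromosome X 3 rose by 1.15 to 1.52, and 7390 to 7450 bases from the Myoz1 probe 3 rose, by 1.03, 1.58 and, with a bound only, at least 1.13-fold. At Pvt1, a noncoding gene beside Myc, all 10 tested probes were positive and 3 rose, by 0.94 to 0.96. An interval on chromosome 3 whose probes have no position (87757295 to 87774970) had 4 rises of 0.96 to 1.36. The probe with the largest of these rises, A_30_P01020627, has the same sequence as the gene probe to Crabp2. That gene probe rose by 1.46 (adjusted p = 0.0188), so this probe cannot be told apart from the gene. Whether the other probes of the interval read the same gene was not tested. Falls came near LOC102634333 on chromosome 3 (4, by 0.99 to 1.41) and near Qser1 on chromosome 2 (3, by 0.94 to 1.31). Of these 27, the number called was 11 without mimic array 1, 13 without mimic array 2, 11 without mimic array 3, 26 without scramble array 1 and 22 without scramble array 2. The calls near Gm2115 and Dynap held in all 5 fits. For the interval without positions and near Myoz1, none held without any 1 mimic array, near Qser1 1 or none did, and at Pvt1 none held without any 1 mimic array or without scramble array 2.

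**Figure D4:**
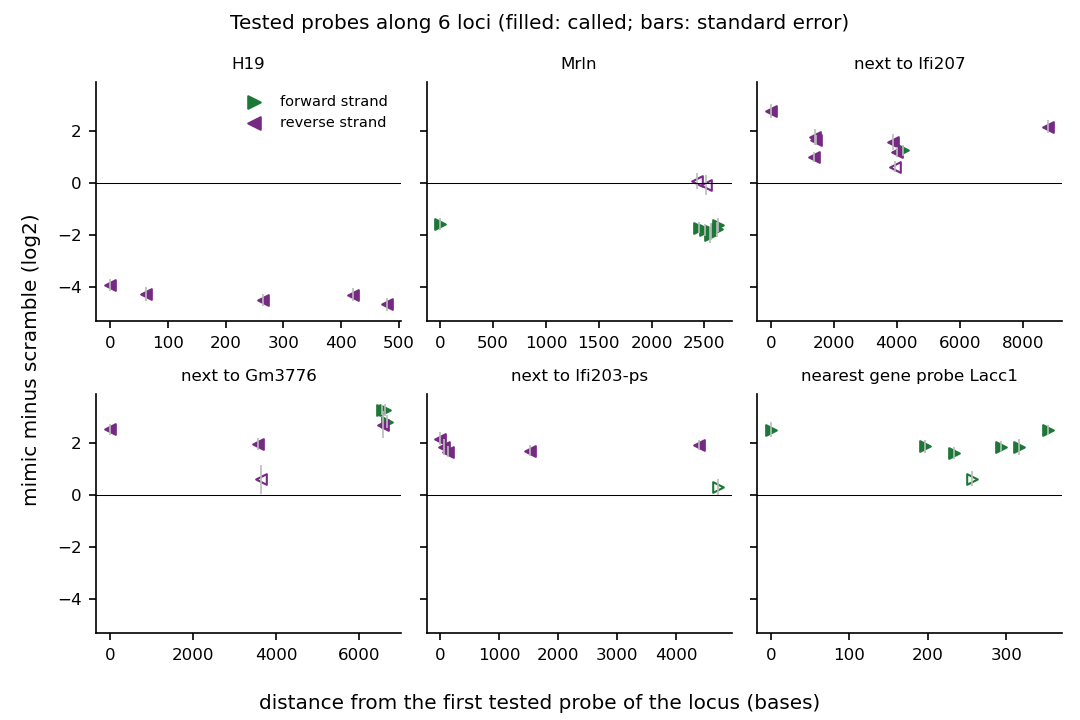
Difference between mimic and scramble (vertical axis, log2, with standard error bars) along 6 loci, each plotted by distance in bases from its first tested probe (horizontal axis). Right-pointing green triangles read the forward strand, left-pointing purple triangles the reverse strand, and filled symbols were called; called probes of a locus share a direction in each panel, and in the Mrln panel they lie on the forward strand.

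Strand could be compared at the 1067 intervals with probes to both strands. In 508 of these neither strand had a tested probe, in 392 only 1 strand did, and in 167 both did. Where both were tested, the median differences had the same sign in 98 of 167. Calls were made in 46 such intervals and on both strands in 3. Over 72 pairs of tested probes whose sequences are partly complementary, 47 had the same sign, 3 were called on both strands and 5 on 1. Pairs can share a probe, so these counts are not of separate loci. Of the pairs called on both strands, those at Gm3776 share A_30_P01021311. The other, on chromosome 3, overlaps by 1 base and moved in opposite directions. Most pairs called on 1 strand lie at Mrln, and several of them share A_30_P01029185.

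The pairs below show that a stretch can differ by strand or not. The capitals mark the stretch of each probe that is complementary to the other, 56 bases at Mrln and 55 at Gm3776. At Mrln, A_30_P01029185 read -0.32, -0.31 and -0.70 with the mimic and 0.34 and -1.10 with the scramble; the groups overlapped and it was not called (-0.07, SE 0.39, adjusted p = 0.937), whereas its forward partner fell. At Gm3776 both strands rose. The difference between strands was not itself tested.
Mrln, forward, A_30_P01031764: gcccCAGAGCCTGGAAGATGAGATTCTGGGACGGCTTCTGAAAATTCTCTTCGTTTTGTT
Mrln, reverse, A_30_P01029185: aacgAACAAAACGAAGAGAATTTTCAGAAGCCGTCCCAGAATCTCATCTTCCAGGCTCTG
Gm3776, forward, A_30_P01020518: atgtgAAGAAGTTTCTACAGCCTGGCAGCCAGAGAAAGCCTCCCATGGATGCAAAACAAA
Gm3776, reverse, A_30_P01021311: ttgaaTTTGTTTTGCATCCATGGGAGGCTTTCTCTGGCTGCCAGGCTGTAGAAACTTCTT

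In 1 locus (chr3:19179899-19216399) probes of opposite strands were called in opposite directions, and the 2 probes share a single base position. The forward A_30_P01027669 read 1.36, 1.37 and 1.26 with the mimic and 2.82 and 3.16 with the scramble, a fall of 1.66 (SE 0.20, adjusted p = 0.00188). The reverse A_30_P01021016 read -1.27, -0.99 and -0.63 against -2.05 and -1.96, the scramble never well above background, at least 1.20-fold higher (adjusted p = 0.0330). The forward call held without each array in turn. The reverse call held only without scramble array 1 (adjusted p from 0.0565 to 0.124 without each other array).
A_30_P01027669, chr3:19204622-19204681, forward strand: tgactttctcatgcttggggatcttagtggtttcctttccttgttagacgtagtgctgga
A_30_P01021016, chr3:19204681-19204740, reverse strand: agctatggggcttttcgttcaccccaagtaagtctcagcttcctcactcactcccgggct

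Of the 12 transcripts named in the intergenic set, H19 alone had a call. NEAT1 and NEAT2 (Malat1), abundant nuclear RNAs transcribed side by side, had differences of 0.40 to 0.72 over 5 probes (adjusted p from 0.0679 to 0.459) and 0.63 to 1.26 over 3 (adjusted p from 0.0533 to 0.115). XIST, which coats the inactive X chromosome, had 0.22 to 0.48 over 5 probes, and TUG1 had -0.43 to -0.21 over 5. The gene probe to Xist, which is not in the intergenic set, had the other sign (-0.45, SE 0.21, adjusted p = 0.232). Differences were 0.28 to 0.74 on 3 of 5 HOTAIR probes, 0.32 to 0.60 on 2 of NRON and -0.44 on 1 of KCNQ1ot1. No probe of PINC, TSIX, BRN1-A or lincP21 was tested. None of these passed the test, which does not show that the levels were the same.

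Noncoding RNA genes are also measured by the array's gene probes. Of a list of 55 such genes, 47 were on the array and 26 were tested, with 3 higher and 2 lower (median 0.23). The falls were H19 and Mrln. Pvt1 rose 2.82-fold (adjusted p = 0.0063), Lockd by 0.95 (adjusted p = 0.0246) and Hoxa11os, named here after its values were seen, by 1.01 (adjusted p = 0.0448). The Lockd call was lost without mimic array 1 (1.03, adjusted p = 0.0730), without each of mimic arrays 2 and 3 (adjusted p = 0.0975 and 0.116) and without scramble array 2 (adjusted p = 0.0670). Hoxa11os was lost without each of the same 4 arrays (adjusted p from 0.105 to 0.145).

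Intergenic probes close to a gene probe on the same strand had differences close to that gene's. Over 203 tested probes within 1 kb of a tested gene probe on the same strand, the differences correlated with r = 0.92 (rho = 0.84). From 1 to 10 kb (n = 236) r was 0.67, and from 10 to 100 kb (n = 526) it was 0.01. On the opposite strand r was 0.50 within 1 kb (n = 49), 0.39 from 1 to 10 kb (n = 143) and 0.13 from 10 to 100 kb (n = 421). These are correlations across probes of the same 5 arrays, several probes share a gene, and near ones can read the same transcript. Of 109 called intergenic probes with a tested gene probe within 100 kb, the gene probe was also called for 56, and for all 56 in the same direction. Of these, 22 lie within 1 kb and 21 from 1 to 10 kb on the same strand, and 1 and 8 on the opposite strand. From 10 to 100 kb the gene probe was called for 2 of 18 called intergenic probes on the same strand and 2 of 19 on the opposite strand. Over all pairs at that distance it was called for 57 of 526 and 56 of 421. For nearer pairs on the same strand it was called for 23 of 203 within 1 kb and 42 of 236 from 1 to 10 kb. On the opposite strand these were 8 of 49 and 16 of 143. Of all 1578 tested intergenic probes with a tested gene probe within 100 kb, 58.1% had the sign of that gene probe. The count of 56 was 29 without mimic array 1, 42 without mimic array 2, 36 without mimic array 3 and 47 without scramble array 2, all in the same direction, and 143 without scramble array 1, of which 122 were in the same direction.

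**Figure D5:**
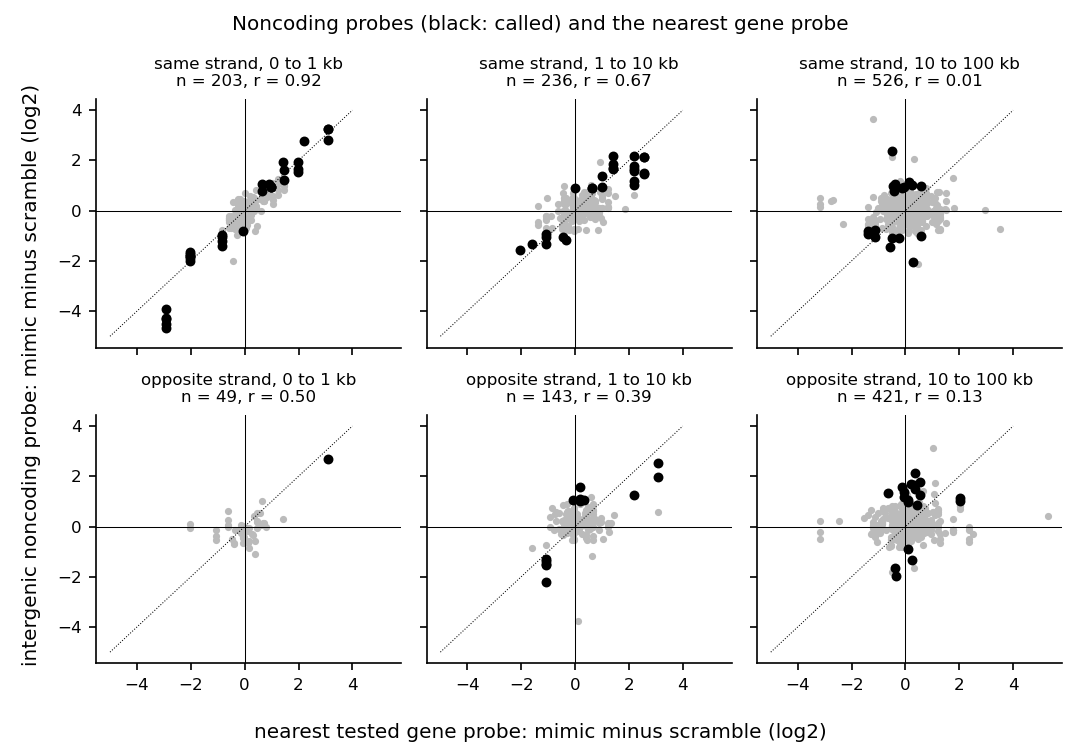
Difference (mimic minus scramble, log2) of each tested intergenic probe (vertical axis) against that of the nearest tested gene probe (horizontal axis), by strand and distance; black points are called intergenic probes and the dotted line marks equal differences. Points follow the line within 1 kb on the same strand (r = 0.92) and show no such order from 10 to 100 kb (r = 0.01).

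Genes of muscle differentiation fell widely in these samples, and the intergenic probes around them were examined by distance. Of 75 listed muscle genes, 64 were tested by gene probes and 46 were called, all lower (median -2.06). Of the intergenic probes within 100 kb of a probe of these genes, 33 were tested. Of these 10 were called, all lower (median -0.23, against 0.11 for all tested intergenic probes; 4.02% of all tested probes and 2.48% of the intergenic ones were called lower). They stand for 2 loci and include the 5 probes of H19, 61431 to 61911 bases from the Tnnt3 probe (troponin T of fast muscle; -1.49, adjusted p = 0.00247). A second list held 30 genes that other work names as targets of the microRNA. Within the same distance of them lay 72 intergenic probes, of which 13 were tested, with a median of 0.13; limma called 0 of them, and 0 had an unadjusted p under 0.05. Of the genes themselves 26 were tested and 8 called, all lower; 4 were called lower without mimic array 1 and 5 without mimic array 3.

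Some of the listed markers of the cells differed between the groups. Of 8 listed myoblast genes, 7 were tested and 4 were lower with the mimic (Myod1, Cdh15, Des and Itga7; the first pair in every leave-one-out fit, the last pair only without scramble array 1), and their summed linear level ran from 265 to 302 on the mimic arrays and 433 to 468 on the scramble arrays, relative to the 75th percentile. That sum is over all 7 tested, and Cd82 (-0.65), Ncam1 (0.24) and Vim (0.19) were not called. Of 6 leukocyte genes, 3 stayed below the background call on all scans, and 1 of the 3 tested (Cd14) was higher. Itgam (0.14) and Csf1r (0.17) were not called. The summed level of the 3 tested was 16.6 to 19.1 against 14.7 to 14.9. The part of these markers in the noncoding results was not tested.

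The letters ACACTAC occurred in 46 of the 16251 intergenic probes (0.283%; 0.259% of all non-control probes), searched on the probe strand, which is that of the transcript measured. Of these, 5 were tested and 2 called: the H19 probe and A_30_P01021337 printed above (of all tested probes 9.13% were called, of the intergenic ones 7.10%). With 5 probes, no share can be read from this. The latter, 5267 bases from a Ptgs1 probe, read -0.83, -0.81 and -0.55 with the mimic and -2.28 and -1.97 with the scramble, a rise of 1.40 (SE 0.21, adjusted p = 0.00561), so the called probes that hold the letters moved in opposite directions. Of 37 tested other probes with the letters, 7 were called, all lower (4.02% of all tested probes were called lower). A match describes a 60-base window and not the whole transcript.

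A check on the measurement came from 79 intergenic probes whose 60 bases are also those of a gene probe. In the 23 pairs with both tested, the differences correlated with r = 0.96, differed by a median of 0.09 and at most 0.79, and had the same sign in 18. Of the 5 intergenic probes called, 4 had the gene probe called too.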

How the data were processed

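Each sample was 1 scan of an Agilent 1-colour array. Per the file headers, the deposited spot intensities came from Agilent Feature Extraction 12.0.0.7 (the submitters' processing notes name 10.7.3.1), and the processed signal is background-subtracted. The series' value table lists all 16251 intergenic probes with 0 values and was not used for them.

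Outlier spots (non-uniform or population flags) were dropped, each scan's 75th percentile of non-control spots was subtracted from log2 processed signal, and the 2 scans of each array position were averaged. Replicate numbers did not pair the samples. Probes well above background on 4 or more of 10 scans were tested with limma 3.58.1 (R 4.3.3; 3 mimic and 2 scramble arrays, 3 residual and 4.85 prior degrees of freedom, Benjamini-Hochberg adjustment over 17455 probes, threshold 0.05). The labels do not tie arrays to separate cultures, so p-values measure the spread between arrays, which may be technical. The number of arrays limits the precision, and the slide offers no batch beyond the scan day. The code was tested on simulated data.

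Gene names of the other probes came through RefSeq tables by accession (28026), symbol (3413) or synonym (295); 7696 kept the file's name. Distances use the files' mm9 positions. Named probes were the 10 largest called rises and 10 largest called falls with arrays apart, the 5 intervals with most calls, up to 10 called probes near a muscle gene and up to 5 near a listed target, and up to 4 called noncoding genes. Other probes are named for completeness after their values were seen. The results of 1 locus are not reported here. The probes, lists (75 muscle, 30 target, 55 noncoding, 8 myoblast and 6 leukocyte genes) and rules were chosen with earlier results of these data known. The alternatives were another scaling, background correction, filter, probe per gene or interval, block, scan day, and leaving out each array.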

Additional observations from a re-analysis of the deposited data

How the results depend on the processing

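The 149 calls (97 higher, 52 lower) kept their direction under every alternative that measured them. Calls were 60 (33 higher, 27 lower) with no filter, 0.369% against 1.04% of all tested probes. They were 86 (57 and 29) among probes well above background on all 10 scans, 8.04% against 9.16%. With 1 probe per gene name they were 71 (52 and 19), 5.57% against 9.32%. With 1 probe per interval they were 72 (52 and 20), 5.65% against 9.31%. The latter 3 tested fewer probes. With the 10 scans as 10 samples calls were 485 (318 and 167), 23.1% against 30.2%. With replicate number as a block over the 10 scans they were 283 (183 and 100), 13.5% against 16.5%. But the numbers do not pair the samples: deviations of same-numbered samples correlated at 0.17, -0.06, -0.28 and 0.13, and no scramble sample correlated best with its own number. Rises were 61 with normexp background correction and 63 on scans of the second day, and the cause was not tested. Leaving out 1 array gave 66 to 520 calls, 37 to 346 rises and 29 to 174 falls, with a median difference of 0.0861 to 0.151. The median of 0.11 became 0.00013 when the 75th percentile was taken over detected probes, which moved the median of all tested probes by -0.11, and -0.13 with no filter. Scalings put 58.5% to 66.7% of calls among rises, against 65.1%. Other alternatives stayed within 1.5 times of the counts, and so did the 56 same-direction neighbours at 10 and 50 kb. Of 41 named probes, 9 lost their call with no filter (A_30_P01032544 at adjusted p = 0.0519), 2 with median scaling and 2 on the second day (A_30_P01027543 at 1.64, adjusted p = 0.0678); none changed direction. The share of probes above background kept its direction with the laxer call. Signals near background limit the low probes to bounds.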

Other observations

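A single array stood apart for 4 of the tested intergenic probes that were not called, which were picked after the values were seen as the uncalled probes with a fitted difference of at least 3 in size. Probe A_30_P01032827 on chromosome 11 read 6.28 on scramble array 2 and between -1.19 and -0.42 on the other 4 arrays (adjusted p = 0.186). A_30_P01024980 on chromosome 6 read 7.76 on the same array and 1.67 to 2.08 on the others (adjusted p = 0.211). A_30_P01019295 on chromosome 16 read 7.90 on mimic array 2 and -2.84 to -0.58 on the others (adjusted p = 0.501). A_30_P01018493 on chromosome 13 read 8.22 on mimic array 2 and -1.51 to -0.45 on the others (adjusted p = 0.387). Each probe has 1 spot, so no second spot on the array can be set beside these values.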
